A study of Mus musculus with 89 samples.

Results

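The genes described here are 10 genes of alveolar and lipid-handling macrophages, namely Marco, Msr1, Cd36, Pparg, Fabp4, Fabp5, Lpl, Trem2, Gpnmb and Krt79, of 22911 genes measured in mouse lung. They were chosen with earlier results of these data known, so their counts beside the shares of all genes are a description only. They were taken by symbol, as all non-control array probes whose transcript accession mapped to one of these genes, which gave 14 probes (3 for Lpl, 2 each for Fabp4 and Msr1 and 1 for each of the others). Female BALB/c mice aged 6 to 8 weeks, all sensitized with ovalbumin in alum (OVA/Alum), were given copper oxide (CuO) nanomaterials through the airways on 4 consecutive days and were challenged with either PBS or OVA, an established model of allergic airway inflammation. The materials were pristine CuO and CuO with a carboxylated (CuO COOH), methylaminated (CuO NH3) or PEGylated (CuO PEG) surface, each at 2.5, 10 or 40 μg per day. With the PBS control (n = 7) and the OVA control (n = 8), neither of which received CuO, the 26 groups held 89 samples. Each exposed group had n = 3, apart from CuO NH3 10 and CuO PEG 10 in PBS-challenged mice with n = 4. For each sample, RNA of 2 preparations was pooled and labelled in 1 colour channel of an Agilent array, taken 24 h after the last exposure. The groups below are named by material, dose and, where the mice were challenged with OVA, "+ OVA". The lungs had been lavaged before the tissue was taken, which removes cells of the airspaces. Because whole lung tissue was measured, fewer cells of a type and less RNA per cell cannot be told apart in any result below.

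Alveolar macrophages live in the airspaces, where they clear surfactant, particles and dead cells. Their development depends on GM-CSF and on the nuclear receptor PPARγ (Pparg), which drives genes for the uptake, transport and storage of lipids. MARCO and the class A scavenger receptor MSR1 bind polyanionic ligands and unopsonized particles, and CD36 takes up oxidized lipoproteins and long-chain fatty acids. FABP4 and FABP5 carry fatty acids inside the cell, and LPL is the lipoprotein lipase that frees them from triglycerides. TREM2 is a lipid-sensing receptor that signals through TYROBP, and GPNMB is a lysosome-related glycoprotein. Together with Fabp5 and Spp1 they are known as marks of lipid-associated macrophages in other tissues. KRT79 is a type II keratin. Cd36, Fabp4 and Lpl are also made by capillary endothelium, muscle and fat, so they are not particular to macrophages.

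All 14 probes were measured well. Each was above the local background in 89 of 89 samples, except for the Msr1 probes with 87 and 86 of 89, and none was saturated or carried an outlier flag. The number of arrays limits the precision. Levels are log2 of the quantile-normalized median intensity, averaged over the probes of a gene, with the effects of dye, slide and array position removed for display, and they can be compared between samples but not between genes. Samples shared arrays in pairs, and the differences from the controls were therefore estimated by limma with array and dye as fixed terms. An estimate can then differ from the difference of the displayed means. The groups were kept when levels were prepared for display, which can narrow the spread within a group. Statements below that samples overlap or lie apart hold for the displayed levels only, not for unadjusted ones. Below, a gene is called changed where its Benjamini-Hochberg adjusted p over all genes was below 0.05 and its change exceeded 1.5-fold (0.58 on the log2 scale). The ± values are standard errors of log2 differences unless stated otherwise. Since CuO and CuO COOH were run on slides 1 to 3, and CuO NH3 and CuO PEG on slides 4 to 6, with controls on all 6, an effect of slide set on those materials is known only through the controls. Siglecf, Car4 and Itgax, used as defining markers of alveolar macrophages, were above background in 100% of the samples, but in whole lung eosinophils, capillary endothelium and dendritic cells can express them too.

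The promoters of the genes that fell and rose are shown to allow their letters to be compared. The RefSeq table held 8 start-site windows for 6 of the 10 genes (Marco, Cd36, Pparg with 3, Trem2, Gpnmb and Krt79) and none for Msr1, Fabp4, Fabp5 and Lpl. The 250 bases before the start are printed 5′ to 3′ on the strand of the gene, in build GRCm38.p6. Cd36 (minus strand, chr5:17835897-17836146) and Pparg (plus strand, chr6:115360894-115361143, the most upstream of its starts) stand for the genes that fell. Trem2 (plus strand, chr17:48346151-48346400) and Gpnmb (plus strand, chr6:49036268-49036517) stand for those that rose. Capitals mark matches on either strand to AGGTCA (a nuclear receptor half-site), TGANTCA (AP-1) and GAGGAA (a core that PU.1 can bind).
Cd36: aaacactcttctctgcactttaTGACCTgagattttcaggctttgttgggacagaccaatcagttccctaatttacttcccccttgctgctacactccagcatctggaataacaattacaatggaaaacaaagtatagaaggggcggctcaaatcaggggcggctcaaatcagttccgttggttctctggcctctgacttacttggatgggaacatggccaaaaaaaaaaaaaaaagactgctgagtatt
Pparg: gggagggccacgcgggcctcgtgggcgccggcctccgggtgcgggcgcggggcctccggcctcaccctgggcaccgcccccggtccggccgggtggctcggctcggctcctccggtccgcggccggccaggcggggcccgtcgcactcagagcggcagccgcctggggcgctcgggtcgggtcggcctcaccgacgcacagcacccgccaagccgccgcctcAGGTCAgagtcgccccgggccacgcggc
Trem2: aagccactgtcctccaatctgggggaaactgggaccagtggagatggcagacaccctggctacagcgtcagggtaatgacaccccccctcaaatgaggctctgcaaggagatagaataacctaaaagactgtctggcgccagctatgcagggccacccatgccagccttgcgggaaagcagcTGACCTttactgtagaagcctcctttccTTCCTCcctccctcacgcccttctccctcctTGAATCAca
Gpnmb: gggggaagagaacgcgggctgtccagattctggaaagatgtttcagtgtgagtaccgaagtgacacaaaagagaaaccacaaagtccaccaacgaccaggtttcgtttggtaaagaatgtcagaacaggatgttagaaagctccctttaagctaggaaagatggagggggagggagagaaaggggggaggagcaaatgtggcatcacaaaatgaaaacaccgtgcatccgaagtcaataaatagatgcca
The half-site AGGTCA, read as TGACCT on the other strand, was in the windows of Cd36 and Trem2 and in 2 of the 3 of Pparg, which made 4 of the 8 windows. Of all 32851 promoter windows of this length in the table, 14% held it. The Trem2 window also held TGANTCA, found in 6.75% of all windows, and GAGGAA, found in 23.3%. GAGGAA also occurred in the Marco window and in another Pparg window. None of the 8 windows held the full direct repeat AGGTCANAGGTCA (0.0335% of all windows), which contains the half-site, or CACGTG (6.02%) or CATGTG (12.3%), the boxes that MITF-family factors can bind. The Gpnmb and Krt79 windows held none of these letters. The matches did not overlap one another, and they describe sequence only.

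In PBS-challenged mice Msr1, Trem2 and Fabp5 were higher and Pparg was lower than in PBS at 40 with all 4 materials, and Gpnmb was higher at 40 with CuO, CuO COOH and CuO NH3. With CuO, 0 of the 10 genes were called at 2.5, 3 at 10 and 7 at 40 (4 higher and 3 lower), where 0.912%, 3.58% and 14.0% of all genes were called. CuO COOH gave 0, 3 and 5 of 10, beside 0.358%, 3.58% and 10.2% of all genes. CuO NH3 gave 2, 3 and 6 of 10, beside 0.952%, 3.31% and 13%. CuO PEG gave 0, 2 and 4 of 10, beside 0%, 0.415% and 2.21%. At CuO PEG 2.5 limma called no gene at all, and 1002 genes had an unadjusted p under 0.05. If no gene changed, a share of about 0.05 of the 22911 genes would have such a p. The count of 1002 is near that share, and the counts of this kind given below are to be read against it. The median change over the 10 genes at 40 was 0.07 for CuO, 0.81 for CuO COOH, -0.35 for CuO NH3 and -0.47 for CuO PEG on the log2 scale, while the median over all genes was between -0.01 and 0.01. With each material, calls at 40 were made in both directions, so a median does not describe the single genes.

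In OVA-challenged mice, set against the OVA control, most calls were of Gpnmb, Msr1 and Fabp5, with 8, 7 and 7 calls. Each of these calls was lost when some 1 sample was left out, and 75th percentile scaling kept 3, 3 and 2 of them. CuO gave 2 and 5 of 10 genes called at 10 and 40, beside 0.262% and 1.63% of all genes. No count is given for CuO 2.5 + OVA: its replicates 1 and 3 had no array partner, so its estimates rested on 1 sample. At 2.5, 10 and 40, CuO COOH gave 0, 2 and 3 of 10, beside 0.0349%, 0.659% and 3.79%. CuO NH3 gave 4, 6 and 6 of 10, beside 0.882%, 2.42% and 3.88%. CuO PEG gave 0, 0 and 3 of 10, beside 0%, 0% and 0.576%. Where limma called no gene with CuO PEG, the number with an unadjusted p under 0.05 was 1773 for CuO PEG 2.5 + OVA and 1292 for CuO PEG 10 + OVA. OVA challenge alone, against PBS, changed 2 of the 10 genes, Trem2 and Msr1, both higher, beside 5.18% of all genes. All comparisons within a challenge share the same control samples, so the counts are not independent of each other.

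**Figure D1:**
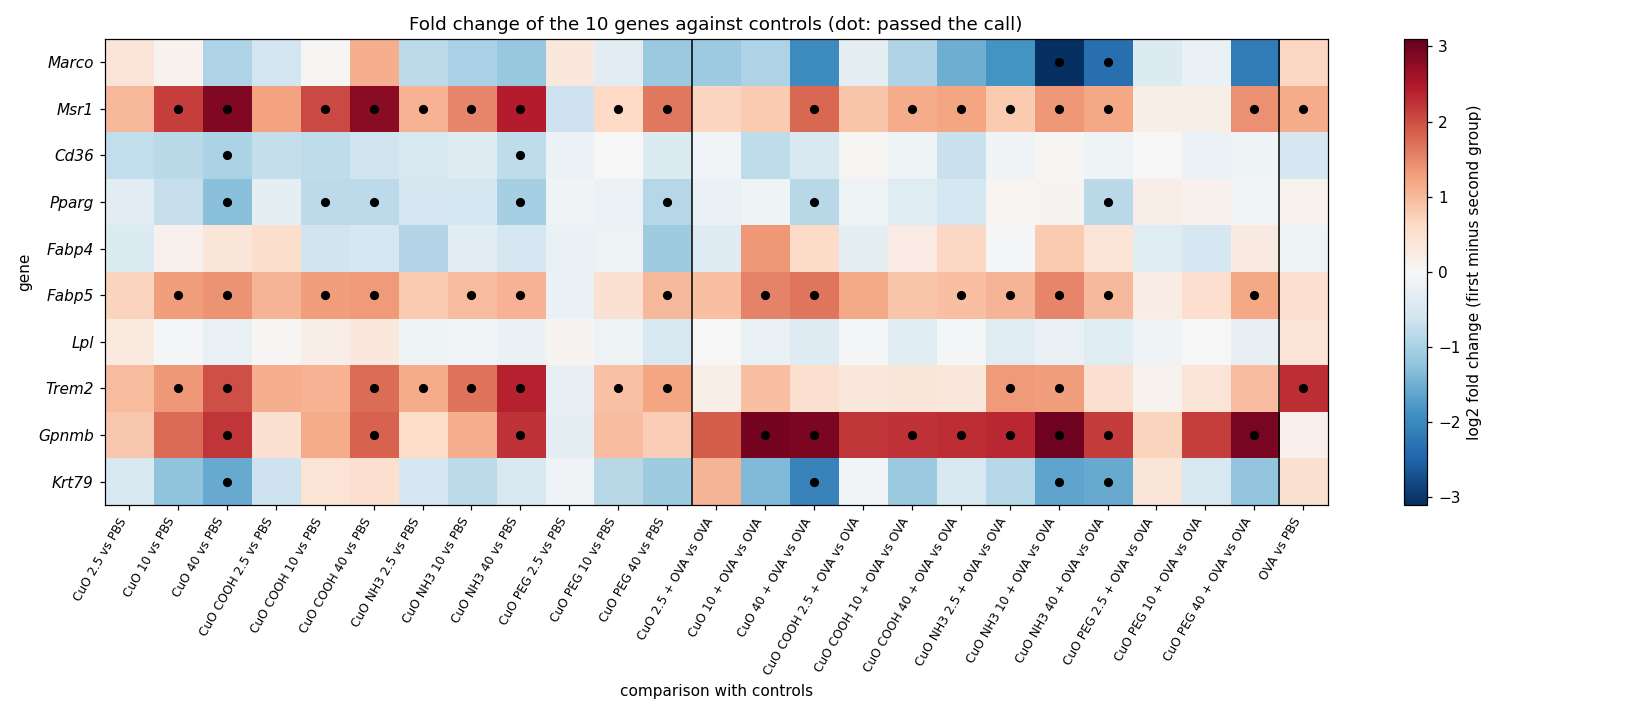
Heat map of log2 differences of the 10 genes (rows) in 25 comparisons (columns: 12 exposures against PBS, 12 against OVA, and OVA against PBS), from the limma fit; a dot marks a called change. Msr1, Fabp5, Trem2 and Gpnmb are on the rising side at 40 and Pparg on the falling side, and the 4 calls of Marco and Cd36 lie between -3.08 and -0.80.

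Msr1 (chromosome 8, 39543232 to 39642750) encodes the class A macrophage scavenger receptor, and it was called more often than any other of the 10 genes in PBS-challenged mice. The PBS samples lay between 6.10 and 6.73 with a median of 6.29. The CuO 40 samples were 8.27, 8.81 and 8.42, and those of CuO NH3 40 were 8.75, 8.70 and 8.75. Every sample given 40 of any material was above every PBS sample, those of CuO PEG 40 included at 7.91, 7.84 and 8.12. The rise at 40 was 2.88 ± 0.29 for CuO (7.35-fold, adjusted p = 3.25e-07), 2.81 ± 0.28 for CuO COOH (2.91e-07), 2.42 ± 0.20 for CuO NH3 (5.95e-09) and 1.64 ± 0.24 for CuO PEG (3.12-fold, 0.000223). At 10 it was called with all 4 materials, from 0.63 for CuO PEG to 2.13 for CuO. At 2.5 it was called with CuO NH3 (1.08 ± 0.24, adjusted p = 0.0234), and the estimates for CuO, CuO COOH and CuO PEG were 1.03 (0.0516), 1.24 (0.0909) and -0.65 (adjusted p = 1). In the OVA control Msr1 already stood at 7.20 to 8.15, above every PBS sample (1.15 ± 0.17, adjusted p = 5e-05). Exposure raised it further in 7 of the 12 OVA-challenged groups, by 0.80 to 1.79, with CuO 40 + OVA highest (1.79 ± 0.28, adjusted p = 0.00178). Both probes showed the rise: 1 was called in 18 of the 25 comparisons and the other in 14. Scaling to the 75th percentile kept 7 of the 9 calls against PBS and 3 of the 7 against OVA. Of the 9 calls in PBS-challenged mice, 4 were lost when a sample was left out. These were CuO 40 without its replicate 2 (1.85, adjusted p = 0.0549), CuO COOH 10 without its replicate 3 (1.31, 0.14), CuO NH3 2.5 without any of its 3 replicates or PBS replicate 5 (1.04 to 1.14, 0.0559 to 0.16), and CuO PEG 10 without its replicate 1, 2 or 3 or PBS replicate 4, 6 or 7 (0.47 to 0.65, 0.0986 to 0.443).

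Each of the 7 Msr1 calls against OVA was lost when a sample was left out. For 3 groups the loss followed 1 exposed sample: CuO 40 + OVA without its replicate 2 (1.26, adjusted p = 0.139), CuO NH3 40 + OVA without its replicate 2 (0.89, 0.0588), and CuO PEG 40 + OVA without its replicate 3 (1.27, 0.214), the last also without OVA replicate 7 (1.58, 0.115). CuO COOH 10 + OVA lost it without its replicate 3 (1.14, 0.0954) or without replicate 1 or OVA replicate 2, which shared an array (0.86). CuO COOH 40 + OVA lost it without replicate 1 or OVA replicate 1 (0.75, 0.318), and CuO NH3 10 + OVA without replicate 3 or OVA replicate 7 (1.57, 0.292). CuO NH3 2.5 + OVA lost it without its replicate 1 or 2 or OVA replicate 2, 3, 6 or 7 (0.60 to 0.83, 0.0515 to 0.888).

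Marco (chromosome 1, 120474538 to 120505024), a scavenger receptor of alveolar macrophages, was not called in any of the 12 exposures of PBS-challenged mice. Its PBS samples lay between 8.30 and 9.06, and only in CuO PEG 40 (7.47, 7.17 and 7.82) did every sample lie below them, with an estimate of -1.15 that did not pass. The lowest and highest estimates were -1.17 for CuO NH3 40 (adjusted p = 0.125) and 1.12 for CuO COOH 40 (0.409). In OVA-challenged mice all 12 estimates were below 0, and 2 passed the test. The OVA samples lay between 8.60 and 10.04 with a median of 9.14. The CuO NH3 10 + OVA samples were 7.75, 6.14 and 6.52 and those of CuO NH3 40 + OVA were 7.18, 7.41 and 6.22, all below the lowest OVA sample. Marco fell by 3.08 ± 0.59 in the former (8.46-fold, adjusted p = 0.00613) and by 2.33 ± 0.58 in the latter (5.02-fold, 0.0173). In 7 other groups all samples were below the OVA samples too, without a call: CuO 2.5, CuO 40 (7.23, 7.31 and 7.05), CuO COOH 10 and 40, CuO NH3 2.5, and CuO PEG 10 and 40 (7.56, 7.90 and 7.40 at 40). Their estimates ran from -2.16 (CuO PEG 40 + OVA, adjusted p = 0.116) to -0.20 (CuO PEG 10 + OVA). The 26 group means spanned 2.54 with a median SD of 0.38 within groups, and none of the 25 neighbouring pairs in their order differed by more than the larger SD of the pair. Neither call held when a sample was left out: CuO NH3 10 + OVA without its replicate 3 or OVA replicate 7 gave -2.50 (adjusted p = 0.653), and CuO NH3 40 + OVA gave -2.65 to -2.00 (0.0539 to 0.118) without any of its replicates or OVA replicate 8. Scaling to the 75th percentile kept 0 of the 2 calls.

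Cd36 (chromosome 5, 17781690 to 17888959), the fatty acid and oxidized lipoprotein receptor whose promoter window is printed above, was lower than in PBS in all 12 estimates and was called in 2. The PBS samples lay between 11.97 and 12.78 with a median of 12.60, the lowest being replicate 4. The CuO 40 samples were 11.45, 11.57 and 11.96, all below it, while those of CuO NH3 40 were 11.76, 11.96 and 12.14 and overlapped with replicate 4 alone. Cd36 fell by 0.98 ± 0.31 with CuO 40 (1.97-fold, adjusted p = 0.0293) and by 0.80 ± 0.22 with CuO NH3 40 (0.00793). CuO COOH 40 gave -0.61 (adjusted p = 0.214) and CuO PEG 40 gave -0.43 (0.509). Against OVA, whose samples lay between 11.97 and 12.28, no exposure was called, the estimate with the lowest adjusted p being -0.69 for CuO COOH 40 + OVA (0.0525). Capillary endothelium also expresses Cd36, and its markers moved the same way. Of 12 endothelial markers, 11, 10, 11 and 1 were lower at 40 with CuO, CuO COOH, CuO NH3 and CuO PEG, and none was higher. Against OVA 0, 3, 6 and 1 were lower, and 7 were lower in OVA than in PBS. Summed intensities here and below are on the linear scale, so the brightest genes of a list weigh most. The sum of the endothelial markers was 117000 to 178000 in PBS, 62700 to 71700 in CuO 40, 62700 to 73300 in CuO NH3 40 and 79800 to 105000 in OVA. Among the defining endothelial markers, Kdr changed by -1.70, -1.17 and -1.12 with the first 3 materials (all called), and Pecam1 by -0.42, -0.53 and -0.94 (the last called). The part of endothelium in the Cd36 result was not tested. The CuO 40 call was lost without its replicate 2 (-0.80, adjusted p = 0.515) or PBS replicate 3 (-0.95, 0.12), and the CuO NH3 40 call without its replicate 1 or PBS replicate 5 (-0.53, 0.371). Scaling to the 75th percentile kept 0 of the 2 calls.

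**Figure D2:**
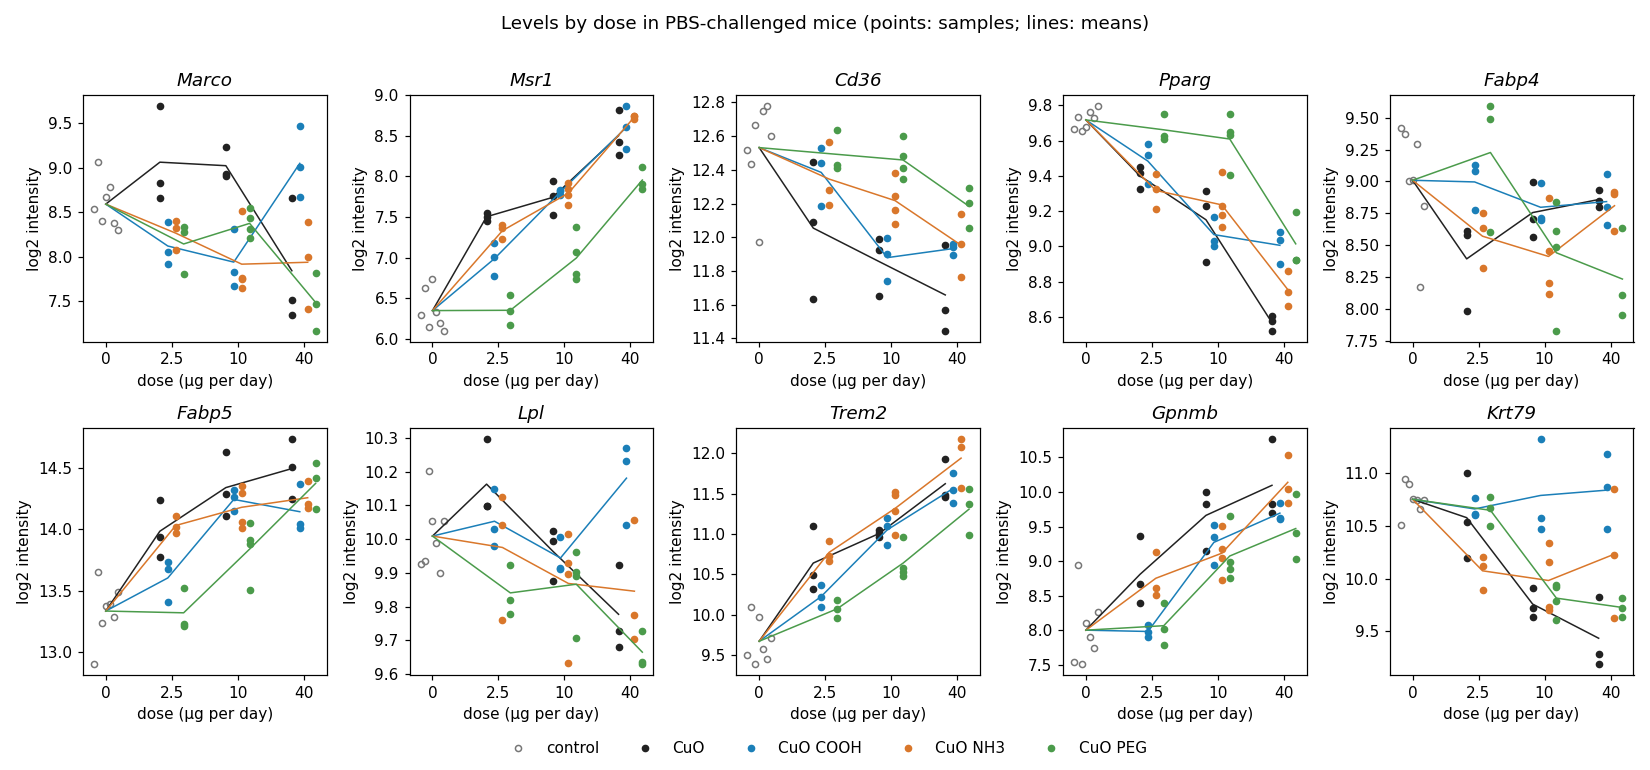
Log2 levels of the 10 genes in PBS-challenged mice by dose in μg per day; each point is 1 sample, lines join group means, grey open points are the 7 PBS controls and colours are the materials (black CuO, blue CuO COOH, orange CuO NH3, green CuO PEG). Msr1 and Trem2 samples at 40 lie above all controls with each material, and Pparg samples at 40 lie below all of them.

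Pparg (chromosome 6, 115360879 to 115490404), the nuclear receptor needed for the alveolar macrophage programme, was among the most tightly measured genes of the set, with a median SD of 0.11 within groups. The PBS samples lay between 9.66 and 9.79. At 40 the samples were 8.60, 8.52 and 8.58 with CuO, 8.90, 9.08 and 9.04 with CuO COOH, 8.66, 8.74 and 8.86 with CuO NH3, and 8.92, 8.92 and 9.20 with CuO PEG. None of these overlapped with PBS. Pparg fell by 1.30 ± 0.20 with CuO (2.47-fold, adjusted p = 7.09e-05), by 0.81 ± 0.20 with CuO COOH (0.00689), by 1.03 ± 0.14 with CuO NH3 (7.91e-06) and by 0.88 ± 0.17 with CuO PEG (0.0034). All 12 estimates were negative, and at 10 only CuO COOH passed both criteria (-0.81 ± 0.22, adjusted p = 0.0353), while CuO NH3 10 had an adjusted p of 0.0261 with a change of -0.55. The OVA control (9.72 to 10.09) was not called against PBS (0.11, adjusted p = 0.675). Against OVA, Pparg fell with CuO 40 + OVA (-0.86 ± 0.20, adjusted p = 0.0283, samples 8.91, 9.07 and 9.21) and with CuO NH3 40 + OVA (-0.84 ± 0.15, 0.00197, samples 9.24, 9.20 and 8.97). CuO PEG 40 + OVA gave -0.08 (adjusted p = 0.897), with samples of 9.50, 9.69 and 9.78 that overlapped with the control. When a sample was left out, 3 of the 5 calls against PBS were lost: CuO 40 without its replicate 2 (-0.81, adjusted p = 0.239), CuO COOH 10 without its replicate 3 (-0.44, 0.483) or PBS replicate 2 or 3 (-0.78 to -0.76, 0.0638 to 0.0749), and CuO COOH 40 without its replicate 1 (-0.58, 0.147). The CuO 40 + OVA call was lost without its replicate 1 or 2 or OVA replicate 2 (-0.84 to -0.60, 0.0562 to 0.27).

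Fabp5 and Fabp4 carry fatty acids and both lie on chromosome 3 (10012585 to 10016610 and 10204342 to 10208616). Fabp5 was called in 14 of the 25 comparisons with controls, all higher, and Fabp4 in 0. Fabp5 was 12.91 to 13.66 in PBS, with a median of 13.38, and 14.73, 14.50 and 14.24 in CuO 40. With all 4 materials at 40 every sample lay above every PBS sample. The rise at 40 was 1.38 ± 0.32 for CuO (2.61-fold, adjusted p = 0.00311), 1.32 ± 0.31 for CuO COOH (0.0049), 1.08 ± 0.22 for CuO NH3 (0.000739) and 1.02 ± 0.26 for CuO PEG (0.0361). At 10 it was called with CuO (1.30), CuO COOH (1.30) and CuO NH3 (0.99), and not with CuO PEG (0.48, adjusted p = 0.198). The OVA samples lay between 13.69 and 14.20, above all PBS samples, and the difference did not pass the test (0.52 ± 0.19, adjusted p = 0.0815). Exposure then raised Fabp5 in 7 of 12 OVA-challenged groups, by 0.92 to 1.66, with samples of 14.95, 15.08 and 15.11 in CuO 40 + OVA (1.66 ± 0.31, adjusted p = 0.0069). For Fabp4, neither of its probes was called in these 25 comparisons. Its PBS samples ranged from 8.17 to 9.42 and its estimates against PBS from -1.10 (CuO PEG 40, adjusted p = 0.0941) to 0.55. In CuO 10 + OVA its samples of 9.88, 9.70 and 9.48 were all above the OVA samples (1.35, adjusted p = 0.106), as were those of CuO NH3 40 + OVA (9.79, 9.48 and 9.72), with an estimate of 0.43 that did not pass. Fabp4 is also an adipocyte and endothelial gene. The summed intensity of 8 adipocyte markers was 1940 to 6580 in PBS and 1080 to 1280 in CuO NH3 40, and 0, 4, 6 and 0 of them were lower at 40 with CuO, CuO COOH, CuO NH3 and CuO PEG, with none higher, while none was called against OVA or in OVA against PBS. Of their defining genes, Adipoq changed by -1.72 and -1.71 with CuO COOH 40 and CuO NH3 40, while Plin1 was above background in only 39.3% of the samples. Their part in the Fabp4 values was not tested.

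Scaling to the 75th percentile kept 5 of the 7 Fabp5 calls against PBS and 2 of the 7 against OVA. Leaving out a sample ended 6 of the 7 Fabp5 calls against PBS, CuO NH3 40 being the exception. CuO 10 lost it without its replicate 2 or 3 or PBS replicate 3 (1.04 to 1.31, adjusted p = 0.102 to 0.182), and CuO 40 without its replicate 2 (1.62, 0.151). CuO COOH 10 lost it without its replicate 1 or 3 or PBS replicate 1 or 3 (1.18 to 1.41, 0.0564 to 0.261), and CuO COOH 40 without its replicate 1 or PBS replicate 1 (1.25 and 1.48, 0.0547 and 0.176). CuO NH3 10 lost it without its replicate 4 (0.71, 0.341). CuO PEG 40 lost it without its replicate 2 or 3 or PBS replicate 2, 3, 4 or 5 (0.88 to 1.10, 0.051 to 0.209). All 7 calls against OVA were lost as well. CuO 10 + OVA lost it without its replicate 2 or OVA replicate 1 or 4 (lowest estimate 1.05, adjusted p = 0.101 to 0.22), and CuO 40 + OVA without its replicate 1 or 2 (1.48 and 1.78, 0.13 and 0.11). CuO COOH 40 + OVA lost it without its replicate 1 or 2 or OVA replicate 1 (0.74 to 0.84, 0.0648 to 0.377). CuO NH3 2.5 + OVA lost it without its replicate 2 or OVA replicate 6 (0.75, 0.865), CuO NH3 10 + OVA without its replicate 3 or OVA replicate 7 (2.02, 0.102), and CuO NH3 40 + OVA without any of its replicates or OVA replicate 8 (0.92 to 1.10, 0.0611 to 0.0925). CuO PEG 40 + OVA lost it without its replicate 1 or 3 or OVA replicate 3, 6 or 7 (0.85 to 1.58, 0.058 to 0.431).

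Lpl (chromosome 8, 68880555 to 68906932), the lipoprotein lipase, moved least of the 10 genes. Its 26 group means spanned 0.69 on the log2 scale, and none of the 25 neighbouring pairs in their order differed by more than the larger SD of the pair. The PBS samples lay between 9.90 and 10.20 and the OVA samples between 10.26 and 10.43, with no overlap in the displayed levels (0.43, adjusted p = 0.0701). Their displayed SD was 0.11 in PBS and 0.06 in OVA. Without the removal of dye, slide and position it was 0.33 and 0.36, around means of 10.04 and 10.34. Estimates against PBS ran from -0.51 (CuO PEG 40, adjusted p = 0.275) to 0.32, and those against OVA from -0.41 to 0.01. None was called, and neither was any of its 3 probes. With the replicate number as a block in place of array, the estimate for CuO PEG 2.5 + OVA turned from -0.12 to 0.60 (adjusted p = 7.71e-05).

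Trem2 (chromosome 17, 48346401 to 48352276), the lipid-sensing receptor, had the widest range of group means in the set, 3.56 on the log2 scale, and 6 of the 25 neighbouring pairs in their order differed by more than the larger SD. The PBS samples lay between 9.39 and 10.09, and the OVA samples between 11.77 and 12.73. OVA challenge raised it by 2.30 ± 0.18 (4.91-fold, adjusted p = 1.01e-08). In PBS-challenged mice the samples at 40 were 11.93, 11.49 and 11.46 with CuO, 11.76, 11.39 and 11.55 with CuO COOH, 12.08, 12.17 and 11.57 with CuO NH3, and 10.99, 11.37 and 11.56 with CuO PEG, all above the PBS samples. The rise was 1.99 ± 0.31 (adjusted p = 6.74e-05), 1.73 ± 0.30 (3e-04), 2.39 ± 0.22 (1.91e-08) and 1.21 ± 0.25 (0.00777), in that order. At 10 it was called with CuO (1.35), CuO NH3 (1.67) and CuO PEG (0.91) and not with CuO COOH (1.07, adjusted p = 0.07), and at 2.5 with CuO NH3 (1.16). Against OVA the 12 estimates were all positive, and 2 were called: CuO NH3 2.5 + OVA (1.32 ± 0.21, adjusted p = 0.00386, samples 13.09, 13.32 and 13.28) and CuO NH3 10 + OVA (1.30 ± 0.24, 0.00429, samples 12.75, 13.16 and 12.97). Both were lost without a sample, the former without its replicate 2 or OVA replicate 6 (1.02, adjusted p = 0.659), the latter without its replicate 3 or OVA replicate 7 (1.64, 0.309). With the replicate number as a block in place of array, neither was kept, and the estimate for CuO PEG 2.5 + OVA turned from 0.11 to -0.68 (adjusted p = 0.00389). That block kept 6 of the 8 calls against PBS, and 75th percentile scaling kept 4 of 8 against PBS and 1 of 2 against OVA. When a sample was left out, 4 of the 8 calls against PBS were lost: CuO 10 without its replicate 2 or 3 or PBS replicate 3 (1.15 to 1.41, 0.0612 to 0.172), CuO COOH 40 without PBS replicate 1 (1.51, 0.151), and CuO NH3 2.5 without its replicate 1 or 3 or PBS replicate 5 (0.82 to 1.15, 0.0866 to 0.354). Leaving out replicate 2 of CuO PEG 40 ended that call too (0.94, 0.0927).

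Gpnmb (chromosome 6, 49036518 to 49058182), a lysosome-related glycoprotein of lipid-laden macrophages, was called in 8 of the 12 OVA-challenged exposures and in 3 of the 12 PBS-challenged ones. OVA challenge alone did not change it by the test (0.15, adjusted p = 0.883): PBS samples lay between 7.52 and 8.94 and OVA samples between 8.30 and 8.79. The CuO 40 + OVA samples were 10.49, 10.78 and 11.63, and those of CuO PEG 40 + OVA were 11.03, 10.43 and 11.34. All samples of all 3 doses of CuO, CuO COOH and CuO NH3, and of the upper 2 doses of CuO PEG, lay above the OVA samples. The largest estimates were 3.01 ± 0.47 for CuO NH3 10 + OVA (8.06-fold, adjusted p = 0.00138), 2.96 ± 0.51 for CuO 10 + OVA (0.0106), 2.94 ± 0.51 for CuO PEG 40 + OVA (0.0132) and 2.91 ± 0.61 for CuO 40 + OVA (0.0137). In PBS-challenged mice the samples were 10.76, 9.83 and 9.70 in CuO 40 (2.22 ± 0.61, adjusted p = 0.0127), 9.84, 9.63 and 9.61 in CuO COOH 40 (1.84 ± 0.59, 0.0418) and 10.04, 10.54 and 9.84 in CuO NH3 40 (2.24 ± 0.43, 0.000376). CuO PEG 40 was not called (0.77, adjusted p = 0.57), although its samples of 9.03, 9.41 and 9.97 lay above all PBS samples. Those of CuO 10 (9.15 to 10.00) did so too, without a call. Scaling to the 75th percentile kept 1 of these 3 calls and 3 of the 8 against OVA. When a sample was left out, 2 of these 3 calls were lost: CuO 40 without its replicate 2 (3.65, adjusted p = 0.0883) or PBS replicate 3 (2.14, 0.0724), and CuO COOH 40 without its replicate 2 or 3 or PBS replicate 1 or 3 (0.43 to 1.82, 0.0615 to 0.915). All 8 calls against OVA were lost too. CuO 10 + OVA lost it without its replicate 2 or OVA replicate 4 (2.56 and 2.73, 0.164 and 0.135), and CuO 40 + OVA without any of its replicates (2.39 to 3.64, 0.0665 to 0.12). CuO COOH 10 + OVA lost it without its replicate 1 or 3 or OVA replicate 2 (2.18 to 2.82, 0.158 to 0.175), and CuO COOH 40 + OVA without its replicate 1 or OVA replicate 1 (2.67, 0.0778). CuO NH3 2.5 + OVA lost it without its replicate 2 or OVA replicate 6 (2.51, 0.557), CuO NH3 10 + OVA without its replicate 3 or OVA replicate 7 (3.92, 0.105), CuO NH3 40 + OVA without its replicate 3 or OVA replicate 8 (1.62, 0.0877), and CuO PEG 40 + OVA without its replicate 3 or OVA replicate 7 (2.33 and 3.63, 0.269 and 0.0507).

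Krt79 (chromosome 15, 101929332 to 101940324), a type II keratin, fell with CuO at 40 under both challenges and was not called with CuO COOH. The PBS samples lay between 10.51 and 10.94 and the OVA samples between 11.18 and 11.78, with no overlap (0.46, adjusted p = 0.349). CuO 40 gave 9.83, 9.28 and 9.19, a fall of 1.55 ± 0.46 (2.94-fold, adjusted p = 0.0195), whereas CuO COOH 40 gave 10.47, 11.18 and 10.87, which overlapped with PBS (0.50, 0.586). All Krt79 samples of CuO 10, CuO NH3 2.5 and 10, and CuO PEG 10 and 40 were also below the PBS samples without a call. Their highest samples were 9.91, 10.21, 10.34, 9.94 and 9.81. Against OVA it fell by 2.07 ± 0.45 with CuO 40 + OVA (4.21-fold, adjusted p = 0.0197, samples 9.70, 9.28 and 9.46), by 1.62 ± 0.35 with CuO NH3 10 + OVA (0.0132) and by 1.56 ± 0.35 with CuO NH3 40 + OVA (0.00876). All samples of 7 other exposed OVA groups were also below the OVA samples without a call: CuO 10, CuO COOH 2.5, 10 and 40 (highest samples 11.05, 10.46 and 11.04), CuO NH3 2.5, and CuO PEG 10 and 40, the last at 10.24, 9.47 and 10.08 (-1.23, adjusted p = 0.138). Each of the 4 calls was lost without a sample. CuO 40 lost it without its replicate 2 (-0.25, adjusted p = 0.918) or PBS replicate 3 (-1.03, 0.25), and CuO 40 + OVA without its replicate 1 or 2 (-2.25 and -1.41, 0.105 and 0.254). CuO NH3 10 + OVA lost it without its replicate 3 or OVA replicate 7 (-0.91, 0.808), and CuO NH3 40 + OVA without its replicate 2 (-1.13, 0.159). Scaling to the 75th percentile kept 0 of these 4 calls.

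**Figure D3:**
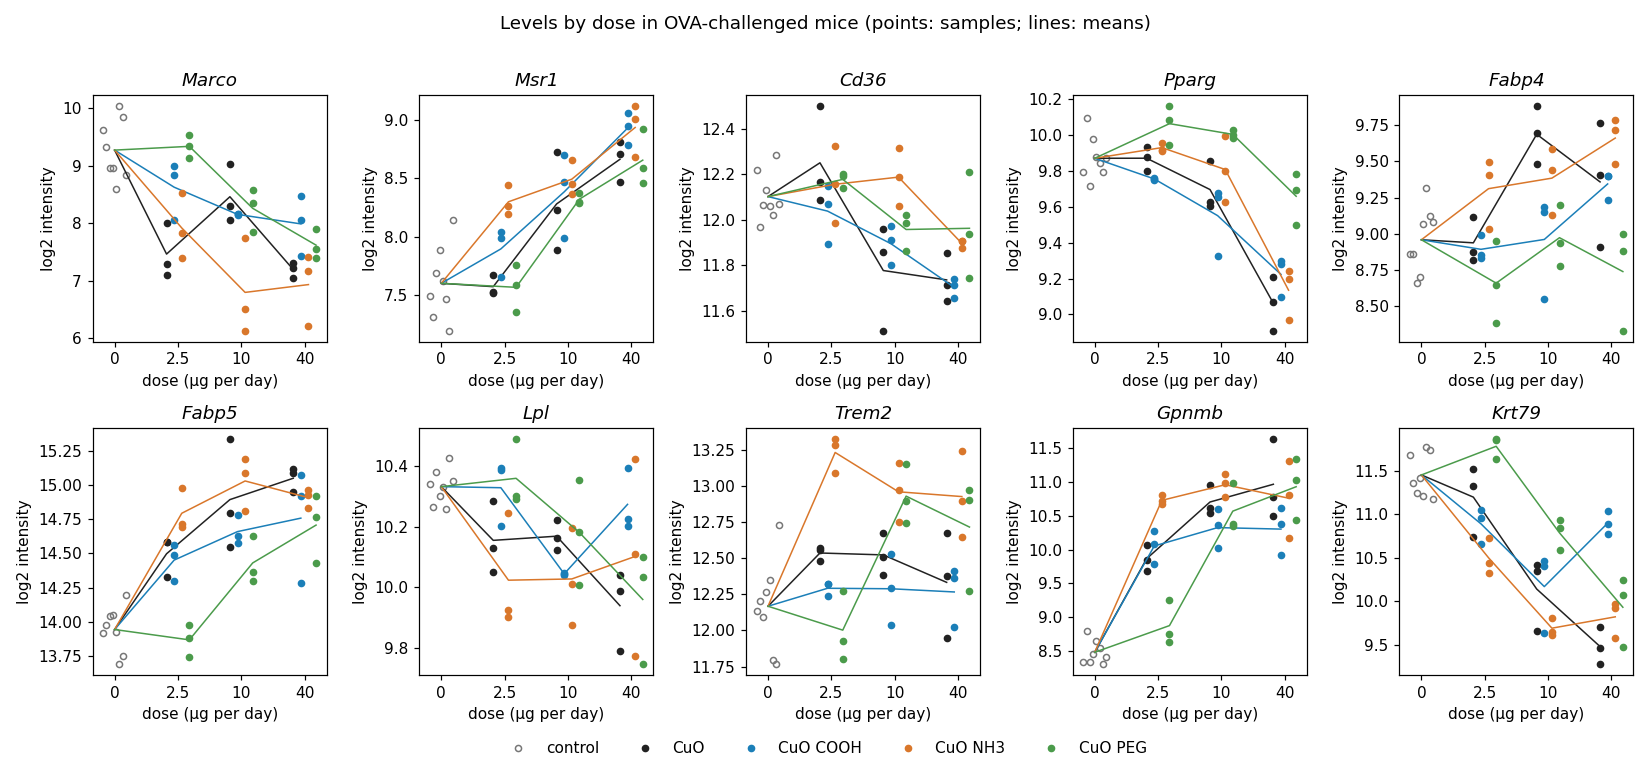
Log2 levels of the 10 genes in OVA-challenged mice by dose in μg per day, drawn as for PBS-challenged mice; grey open points are the 8 OVA controls. Gpnmb samples lie above all controls at 40 with each material, and Krt79 samples of CuO 40 + OVA (9.70, 9.28 and 9.46) lie below those of CuO COOH 40 + OVA (10.77, 10.89 and 11.04).

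Whether the response to 40 differed between the challenges was tested as an interaction, the change against OVA minus the change against PBS. Of the 10 genes, 1 was called with CuO (beside 1.13% of all genes), 1 with CuO COOH (1.07%), 2 with CuO NH3 (1.56%) and 0 with CuO PEG (0%, while 1124 genes had an unadjusted p under 0.05). Trem2 had an interaction of -1.49 ± 0.34 with CuO (adjusted p = 0.0265) and -1.90 ± 0.30 with CuO NH3 (0.000665): it rose by 1.99 and 2.39 in PBS-challenged mice, while in OVA-challenged mice, whose control was already high, the estimates were 0.50 in both. Msr1 had -1.57 ± 0.33 with CuO COOH (adjusted p = 0.0153) and -1.22 ± 0.28 with CuO NH3 (0.0221). For Gpnmb, whose estimates were larger against OVA with CuO PEG (2.94 against 0.77), the interaction was 2.17 with a 95% interval of 0.68 to 3.66 and an adjusted p of 0.748, so a difference between challenges was not shown. The Trem2 interaction with CuO was lost without CuO 40 replicate 1 or 2, CuO 40 + OVA replicate 1 or 2, or PBS replicate 3 (-1.67 to -1.16, adjusted p = 0.0731 to 0.367). The Msr1 interaction with CuO COOH was lost without CuO COOH 40 replicate 1 (-1.06, 0.352). That with CuO NH3 was lost without CuO NH3 40 replicate 1 or 2, CuO NH3 40 + OVA replicate 1 or 3, OVA replicate 5 or 8, or PBS replicate 5 (adjusted p = 0.0531 to 0.194). The Trem2 interaction with CuO NH3 was called without any 1 sample.

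**Figure D4:**
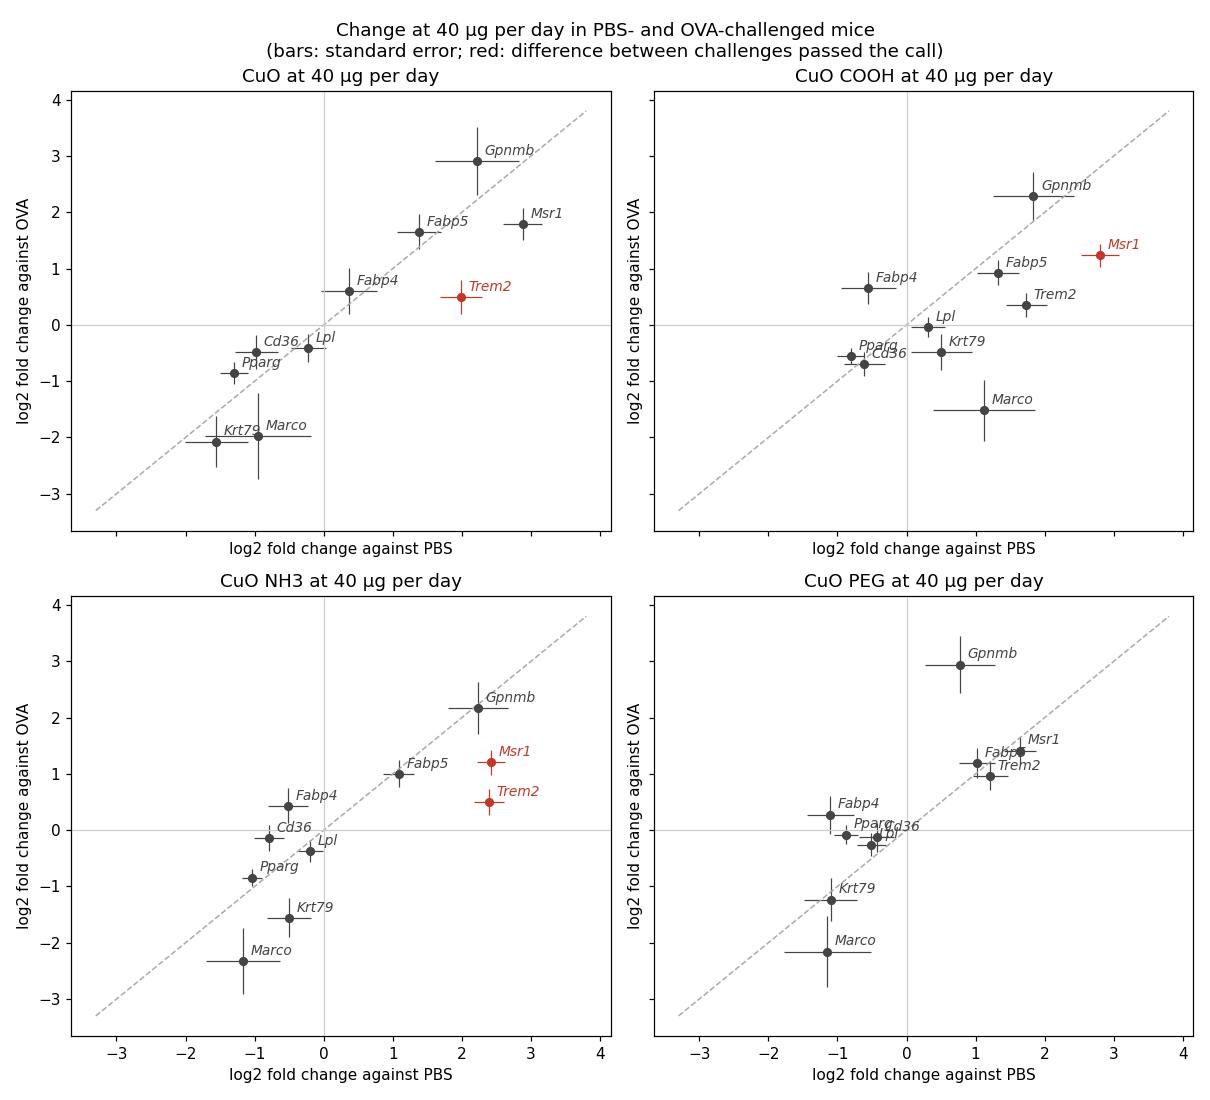
Log2 change at 40 μg per day in PBS-challenged mice (horizontal axis, against PBS) and in OVA-challenged mice (vertical axis, against OVA) for the 10 genes, with 1 panel per material; bars are standard errors, the dashed line marks equal change and red marks a called interaction. Trem2 lies below the line with CuO and CuO NH3, and Msr1 with CuO COOH and CuO NH3.

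The coated materials were set against pristine CuO at 10 and 40 under each challenge, 12 comparisons in all, fitted with dye, slide and array position as terms. Of the 10 genes, 3 calls were made, and with array in place of slide and position none of the 3 was kept. Krt79 was higher with CuO COOH 40 than with CuO 40 (1.41 ± 0.25, adjusted p = 0.00473, 10.47 to 11.18 against 9.19 to 9.83) and again with CuO COOH 40 + OVA (1.42 ± 0.27, 0.00562). Pparg was higher with CuO PEG 40 + OVA than with CuO 40 + OVA (0.60 ± 0.14, adjusted p = 0.0335, 9.50 to 9.78 against 8.91 to 9.21). In PBS-challenged mice the share of all genes called was 0.0175%, 0.157% and 1.08% at 10 for CuO COOH, CuO NH3 and CuO PEG, with 0 of the 10 genes called in each, and 0.109%, 0.118% and 4.31% at 40, with 1, 0 and 0 called. In OVA-challenged mice the shares were 0.00436%, 0% and 0% at 10, with 0 of 10 called in each, and 0.380%, 0.371% and 0.393% at 40, with 1, 0 and 1 called. Where no gene was called, 1547 (CuO NH3 10 + OVA) and 1426 (CuO PEG 10 + OVA) had an unadjusted p under 0.05. CuO PEG 40 against CuO 40 gave a Pparg difference of 0.45 with an adjusted p of 0.0164 that did not reach 1.5-fold, and an Msr1 difference of -0.55 (95% interval -1.03 to -0.07, adjusted p = 0.134). For CuO COOH 40 against CuO 40 the intervals were -0.30 to 0.51 for Msr1, -0.50 to 0.39 for Trem2 and -1.06 to 0.25 for Gpnmb, so changes of either sign within them could not be told from 0. For CuO NH3 40 against CuO 40 they were -0.26 to 0.72, -0.23 to 0.86 and -0.76 to 0.85. With array and dye as terms, the Krt79 estimates were 2.06 (adjusted p = 0.843) and 1.58 (adjusted p = 1) and the Pparg estimate 0.78 (0.819), and the Pparg call was also lost with loess and with 75th percentile scaling. The Krt79 call in PBS-challenged mice was lost without CuO COOH 40 replicate 2 (1.19, adjusted p = 0.112) or CuO 40 replicate 2 (1.32, 0.0724), and the Pparg call without CuO PEG 40 + OVA replicate 2 or 3 or CuO 40 + OVA replicate 1 (0.51 to 0.58, 0.0548 to 0.27).

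Dose was tested within each material in PBS-challenged mice as 40 against 2.5, with the same terms and without the controls entering the difference. Of the 10 genes, 6 were called with CuO (beside 5.50% of all genes), 3 with CuO COOH (6.28%), 3 with CuO NH3 (7.19%) and 7 with CuO PEG (2.56%). Msr1, Trem2 and Gpnmb were higher at 40 with every material. Msr1 rose by 1.00, 1.62, 1.40 and 1.61 with CuO, CuO COOH, CuO NH3 and CuO PEG, Trem2 by 0.98, 1.34, 1.17 and 1.24, and Gpnmb by 1.29, 1.71, 1.39 and 1.40. With CuO, Pparg (-0.83 ± 0.11, adjusted p = 1.32e-07), Krt79 (-1.14 ± 0.26) and Marco (-1.22 ± 0.40) fell, and with CuO PEG, Pparg (-0.65 ± 0.11), Krt79 (-0.92 ± 0.26) and Fabp4 (-0.99 ± 0.28, adjusted p = 0.0152) fell while Fabp5 rose (1.05 ± 0.19). With CuO, CuO COOH and CuO NH3 the Fabp5 difference was 0.51 (adjusted p = 0.0508), 0.54 (0.0407, under 1.5-fold) and 0.23 (0.407). Fabp4 samples were 9.49, 9.59 and 8.60 at CuO PEG 2.5 and 8.11, 8.64 and 7.95 at CuO PEG 40, so the groups overlapped. With array in place of slide and position, all 4 Msr1 calls, both Pparg calls and the Fabp5 call were kept, but only 2 of 4 for Trem2 and 1 of 4 for Gpnmb, and none for Krt79, Marco and Fabp4. Leaving out a sample ended none of the Msr1, Trem2 and Fabp5 calls. The CuO calls were lost for Marco without CuO 40 replicate 1 or 2 or CuO 2.5 replicate 2 (-1.03 to -0.87, adjusted p = 0.0988 to 0.266), for Gpnmb without CuO 40 replicate 1 (0.91, 0.0724) and for Krt79 without CuO 2.5 replicate 3 (-0.83, 0.0517). The CuO PEG calls were lost for Fabp4 without CuO PEG 40 replicate 1 or 3 or CuO PEG 2.5 replicate 1 or 2 (-0.92 to -0.79, 0.0774 to 0.126), for Krt79 without CuO PEG 40 replicate 1 or 3 or CuO PEG 2.5 replicate 2 or 3 (-0.92 to -0.83, 0.0548 to 0.128), for Gpnmb without CuO PEG 40 replicate 3 (1.12, 0.0684), and for Pparg without CuO PEG 40 replicate 2, where -0.58 no longer exceeded 1.5-fold.

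Leaving out 1 sample also took its array partner out of the estimates against the controls, since the array was a fixed term, and 64 of the 94 calls were lost without at least 1 sample while none turned direction. The calls against a control at 40 that held throughout were Trem2 with CuO and CuO NH3, Msr1 with CuO COOH, CuO NH3 and CuO PEG, Pparg with CuO NH3, CuO PEG and CuO NH3 + OVA, and Fabp5 and Gpnmb with CuO NH3. Both calls of OVA against PBS, Trem2 and Msr1, held as well. CuO COOH 2.5 replicate 2 and CuO 2.5 + OVA replicates 1 and 3 had no array partner and did not enter these estimates, so CuO 2.5 + OVA rested on 1 sample and CuO COOH 2.5 on 2.

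The levels of the 10 genes over the 26 group means were also compared with each other and with 15414 genes that were above background in most samples, as a description in which groups share slides and controls. Fabp5 and Gpnmb ran together most closely (Pearson r = 0.948), followed by Msr1 and Gpnmb (0.875), Msr1 and Fabp5 (0.866) and Trem2 and Gpnmb (0.86), while Msr1 and Cd36 ran opposite (-0.826). The 3 genes most like each member were Exo1 (0.978), Cyp7b1 and Hat1 for Msr1, Rarres1 (0.759), Tcf7l2 and Hps5 for Marco, Tdrp (0.919), Uimc1 and Elac1 for Cd36, and Ear10 (0.966), Serpinb1a and Ear2 for Pparg. For Fabp5 they were Arg2 (0.975), Lhfpl2 and Gpnmb, for Fabp4 Frmd5 (0.774), Fhl2 and Pgap6, and for Lpl Phgdh (0.792), Gm8096 and Clec4b1. For Trem2 they were Ciao2a (0.98), Pycard and Cd68, for Gpnmb Arg2 (0.953), Mcpt-ps1 and Fabp5, and for Krt79 Lrrc26 (0.762), Pcsk1 and Lpl.

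Lists of related genes are given beside these values, to be read against the shares of all genes called in the same comparisons, at 40 against PBS 14.0%, 10.2%, 13% and 2.21% for CuO, CuO COOH, CuO NH3 and CuO PEG. At 40 against OVA the shares were 1.63%, 3.79%, 3.88% and 0.576% in the same order, and in OVA against PBS the share was 5.18%. The lists were chosen with earlier results of these data known, so their counts are a description and not an independent comparison. The shares also include genes that were not above background in most samples. Among 18 other alveolar macrophage genes, 1 was higher and 9 lower with CuO 40 against PBS, and the counts were 3 and 6 with CuO COOH, 3 and 9 with CuO NH3, and 0 and 5 with CuO PEG. Their median changes were -0.61, -0.12, -0.59 and -0.42. Siglecf, the sialic acid receptor that defines these cells in the mouse, fell with all 4 materials (-1.43, -0.82, -1.03 and -1.14). Ear2, an eosinophil-associated ribonuclease, also fell with all 4 (-4.19, -2.52, -2.94 and -2.74), and Fabp1 with the first 3 (-4.88, -2.74 and -3.06). Krt19 rose with those 3 materials (0.97, 1.07 and 0.72) and Ctsk, the protease cathepsin K, with CuO COOH (1.23) and CuO NH3 (0.74). OVA against PBS gave 6 higher and 1 lower of the 18, and exposure at 40 against OVA gave 1 and 4, 1 and 8, 0 and 9, and 0 and 0 for the materials in the same order. The summed intensity of the list was 47600 to 64000 in PBS, 34600 to 37100 in CuO 40 and 125000 to 324000 in OVA. The brightest genes weigh most in this sum, so it does not show how many of the 18 moved.

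Among 15 other genes of lipid-associated macrophages, 7, 7, 8 and 3 were higher at 40 against PBS with CuO, CuO COOH, CuO NH3 and CuO PEG, and 0, 0, 1 and 0 lower, with medians of 0.81, 0.63, 0.81 and 0.37. Spp1, which encodes osteopontin, rose most (4.87, 5.55, 4.44 and 2.90), and Cstb, the cathepsin inhibitor cystatin B, rose with all 4 (1.84, 1.69, 1.70 and 0.95), while Cd9 fell with CuO NH3 (-0.69). Against OVA the higher counts were 5, 5, 4 and 2 and the lower 0, 1, 1 and 0, and OVA against PBS gave 7 higher and 0 lower. Among 15 other genes of fatty acid handling and PPAR targets, the counts were 1 higher and 2 lower with CuO, 0 and 2 with CuO COOH, 1 and 2 with CuO NH3, and 0 and 1 with CuO PEG, with medians between -0.36 and -0.23. Hilpda, the inhibitor of triglyceride breakdown, fell with all 4 materials (-1.21, -0.89, -0.90 and -1.02), Dgat2, which makes triglycerides, fell with CuO COOH and CuO NH3 (-0.95 and -0.89), and Angptl4, an inhibitor of LPL, rose with CuO (1.53) and CuO NH3 (1.81). Against OVA the list gave 1 call, Angptl4 higher with CuO NH3 (1.24), and OVA against PBS gave 0 higher and 3 lower. Among 11 measured of 12 other scavenger and phagocytic receptors, 2 rose and 1 fell with CuO and with CuO COOH, 4 rose and 3 fell with CuO NH3, and none passed with CuO PEG. Cd68, the lysosomal macrosialin, rose with the first 3 (1.20, 1.22 and 1.23), Fcgr1 with CuO NH3 (1.36), and Colec12 fell with the first 3 (-0.87, -0.70 and -0.75). Against OVA the counts of that list were 1 and 0, 2 and 1, 0 and 1, and 0 and 0, and OVA against PBS gave 3 and 0. Among 12 genes of the GM-CSF and TGF-beta axis, 4, 1, 2 and 2 rose against PBS and none fell, Cebpb being higher with the first 3 materials (0.92, 0.91 and 0.83). Against OVA, 1 rose (CuO NH3), and OVA against PBS raised 3.

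Some markers of other cells also changed with the same exposures, and their counts are to be read against the same shares of all genes. Of 12 genes of monocytes and interstitial macrophages, cells that also express Msr1, Trem2 and Gpnmb, 8, 8, 9 and 5 rose at 40 against PBS with CuO, CuO COOH, CuO NH3 and CuO PEG, and none fell. Against OVA 2, 3, 3 and 0 rose, and OVA against PBS raised 8. Cd14 rose by 3.31, 2.39, 2.68 and 2.21, and Ccr2, the chemokine receptor of inflammatory monocytes, by 0.86, 1.35, 1.08 and 1.20, while Ly6c2 gave -0.22, 0.01, -0.13 and -0.27 with no call. The summed intensity of this list was 46200 to 60600 in PBS, 53300 to 60400 in CuO 40, 56500 to 57500 in CuO NH3 40 and 53300 to 62900 in OVA. At 40 all 4 materials overlapped with PBS, and CuO COOH 40 + OVA, at 70000 to 83700, lay wholly above OVA while the other 3 materials overlapped with it. Of 9 measured neutrophil genes, 7 rose and 1 fell with CuO, 2 and 0 with CuO COOH, 6 and 1 with CuO NH3, and 1 and 0 with CuO PEG. Against OVA 5, 2, 7 and 1 rose, and 2 rose in OVA against PBS. Il1r2 rose by 3.55, 2.30, 2.67 and 2.02 against PBS, and Csf3r fell with CuO (-0.90) and CuO NH3 (-0.89). The summed intensity of the neutrophil genes was 66500 to 88700 in PBS. At 40 it was 77000 to 93400, 59200 to 66700, 77800 to 107000 and 77400 to 80500 with the materials in the same order, each overlapping with PBS. Of 6 eosinophil genes, 0 rose and 2 fell with CuO and with CuO COOH, 1 rose and 1 fell with CuO NH3, and 0 rose and 1 fell with CuO PEG, and 2 rose with OVA. Their defining marker Epx was above background in 48.3% of the samples, and Siglecf is shared with the alveolar macrophage list. Of 10 alveolar type 2 genes, 1 rose with each material and 1, 1, 2 and 0 fell, and of 8 smooth muscle and fibroblast genes 2, 2, 3 and 1 rose and 2, 1, 2 and 0 fell. The part of these cells in the values of Msr1, Trem2, Gpnmb and Pparg was not tested.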

How the data were processed

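Lung RNA of 89 samples was hybridized to 46 2-colour Agilent mouse arrays on 6 slides, with 44 samples in Cy3 and 45 in Cy5. The authors deposited spot intensities from Agilent Feature Extraction (12.0.2.2 in the file headers) and a table of log2 values. Their methods name log2 transformation, quantile normalization and ComBat correction for labelling and array. The deposited log2 table equalled the quantile-normalized log2 median foreground intensities within 5e-09, so no batch correction was seen in it.

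Here, log2 median foreground intensities were quantile normalized over 62976 spots, outlier-flagged spots were set to missing, 3671 control spots were dropped and probes were averaged to 22911 genes through RefSeq accessions. Least-squares fits were computed directly, with the variance moderation of limma 3.58.1 (R 4.3.3, data.table version 1.17.8), and are called limma in the text. All samples were fitted with dye and array as terms (17 residual degrees of freedom), or with dye, slide and array position between materials and between doses (50). Only the latter fit was checked against limma's own. Benjamini-Hochberg adjustment ran over all genes, separately for each of 45 comparisons. In a simulation where 200 of 22851 genes were shifted by 1.5 (log2), 188 were recovered for CuO 40 against PBS and 199 each for CuO NH3 40 + OVA against OVA and OVA against PBS. False calls were 9, 4 and 2 in the same order. The simulated noise was independent between samples, without effects of dye, slide or array, and fewer genes were shifted than were called in the data. The recovery therefore checks the fit and does not measure the power in these data. The p-values measure the spread between these pools. The number of arrays limits the precision.

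The 10 genes and the 12 lists (137 genes, 135 measured) were chosen with earlier results of these data known. From each list up to 2 rising and 2 falling genes with a call at 40 against PBS were named by mean change, and the first 3 markers of a cell type could be named. Alternatives were normexp background correction, loess, 75th percentile scaling, leaving out dim probes, the deposited table, other batch terms, array as a random block, the replicate number as a block, same-slide controls and leaving out each sample. Replicate numbers were not taken as pairs: of 81 pairs with the same number, 30 had deviations correlated above 0.1, and in 0 of 25 comparisons did all. In OVA against PBS 6 of 7 pairs did (0.312 to 0.697), and replicate 4 did not (-0.152). In each of these 7 pairs both samples had the same dye, and those of replicates 1, 5, 6 and 7 also shared a slide. Dye and slide were not removed here, so they cannot be told apart from pairing.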

Additional observations from a re-analysis of the deposited data

Results flagged for a closer look

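The 10 genes were examined in the 4 groups with 4 or more samples, which made 40 sets, and 2 of these held a sample far from the others, where chance gives about 1 in 20. Marco in CuO NH3 10 replicate 4 was 8.51, with the nearest sample at 7.76. Cd36 in PBS replicate 4 was 11.97, with the nearest at 12.43. The change at 40 differed between the challenges by the limma interaction test for Trem2 with CuO (-1.49, adjusted p = 0.0265) and CuO NH3 (-1.90, 0.000665), and for Msr1 with CuO COOH (-1.57, 0.0153) and CuO NH3 (-1.22, 0.0221), the rise being smaller against OVA than against PBS.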

How the results depend on the processing

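Of the 94 calls of the 10 genes, 93 were kept with normexp, 90 with loess, 94 without dim probes, 94 with the deposited table, 94 with array as a random block, 87 with the replicate block and dye, 81 with other batch terms, 54 with 75th percentile scaling, and 63 of 70 with controls of the same slides only. Calls against PBS were 35, and 21 with 75th percentile scaling, 56 with array as a random block and 53 with other batch terms. Calls against OVA were 31, and 10, 54 and 48 in the same order. OVA against PBS had 2 calls, with 5 under the random block, 6 with the replicate block and dye and 5 with other batch terms. Interactions had 4, with 1 under percentile scaling, 8 under the random block, 8 with the replicate block and 11 with other batch terms. Comparisons with pristine CuO had 3, with 18 under the random block, 18 with the replicate block and 1 with other batch terms, which kept none of the 3, and dose steps had 19, with 10 under other batch terms. The causes were not tested. Percentile scaling moved the median of all genes by up to 0.803 (log2, CuO 2.5 + OVA), and 0 of the called genes changed sign. Against OVA it kept 3 of 7 Msr1, 2 of 7 Fabp5, 3 of 8 Gpnmb, 1 of 2 Trem2, 1 of 2 Pparg, 0 of 3 Krt79 and 0 of 2 Marco calls. Without 1 sample the counts ran from 25 to 39 against PBS, 21 to 38 against OVA, 2 to 3 for OVA against PBS, 3 to 5 for interactions, 2 to 5 between materials and 16 to 20 for dose. With the replicate block in place of array, 50 calls were made against PBS and 42 against OVA, and in CuO PEG 2.5 + OVA against OVA the sign turned for Lpl (0.60, adjusted p = 7.71e-05 by limma) and Trem2 (-0.68, 0.00389), neither of which was called before. In 2 cases, each a comparison with 1 sample left out, no estimate remained. Signal limits the dim genes: between 46.7% and 68.8% of the probes were well above background in a sample.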
